A study of Mus musculus with 12 samples.

Results

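Interferon-stimulated genes were followed in the lungs of mice given recombinant human PBEF (rhPBEF), ventilated at a high tidal volume, or both. The 37 genes are textbook interferon targets listed by gene symbol, with earlier results of these data known, and where a gene had several probe sets, the brightest over the 12 arrays was used. Of these, 35 had a probe set annotated to that symbol and no other, and 34 passed the filter on low levels and were tested among 12921 genes. Isg15 and Ifi44 were not analysed here, and Mx1 was measured but not tested because its mean lay below the filter.

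Lung total RNA of mice aged 8 to 12 weeks was hybridised to 12 Affymetrix arrays, 3 in each of 4 groups. Control mice received PBS. In the ventilation group, mechanical ventilation lasted 4 hours and each breath was set to 30 ml/kg, a large volume used to model ventilator-induced lung injury. The rhPBEF group received 20 µg of the protein per mouse into the trachea, in water at 1.5 µl per gram of body weight. The fourth group, here called both, received the same rhPBEF and the same ventilation. The labels give no strain or sex, no time from instillation to collection, no vehicle for the ventilated mice, and no vehicle-matched group for the instilled protein. Their description field calls the animal of every sample a control, treated samples included, so the groups used here follow the sample titles. They do not say that replicates are separate animals, so the p-values reflect only how much these arrays vary, which may be technical. PBEF, also called NAMPT or visfatin, is an enzyme of NAD synthesis that is also found outside cells as a cytokine-like protein.

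Interferons are secreted proteins that make cells resist infection. Type I interferons act through a complex of transcription factors that binds a response element in target promoters, whereas interferon gamma acts largely through a gamma-activated site. The targets include sensors and destroyers of viral RNA, GTPases that attack vacuoles holding microbes, chemokines that attract activated lymphocytes, and the machinery that cuts and presents peptides on MHC class I. In the lung, epithelium, alveolar macrophages and recruited leukocytes can all express them. Several, Cxcl10 and Irf1 among them, are also targets of NF-kB. In bulk tissue, fewer cells of a type and less RNA per cell cannot be told apart.

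The promoters of these genes are shown first, because type I interferons act on target promoters through the response element. RefSeq promoters (GRCm38.p6, 250 bases before to 50 bases after each start) were matched for 29 of the 37 genes, some with more than 1 start. The response element core, written GAAANNGAAA and searched on both strands, lay in 13 of the 29 genes (44.8%). It was found in 36.1% of their promoters, against 3.44% of all 32851 promoters of the same length. The gamma-activated site, TTCNNNGAA, lay in 9 of the 29 genes (31%), in 25% of their promoters and in 8.3% of all promoters, and an NF-kB site in 7 (24.1%), in 19.4% and 8.46% of promoters respectively. The stretches below are each the 250 bases before the start, written 5′ to 3′ on the gene's strand with motif matches in capitals. Cxcl10, Ifit3 and Gbp2 hold the core and had the smallest p-values among core-holding genes for rhPBEF, and Ifi47 had the smallest among genes without it.
Cxcl10, chr5:92348890-92349139, minus strand: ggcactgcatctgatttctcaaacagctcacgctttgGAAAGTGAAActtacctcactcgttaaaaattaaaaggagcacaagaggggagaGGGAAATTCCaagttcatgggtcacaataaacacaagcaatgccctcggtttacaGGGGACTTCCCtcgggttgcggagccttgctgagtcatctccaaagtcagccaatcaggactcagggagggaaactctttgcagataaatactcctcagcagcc
Ifit3, chr19:34583279-34583528, plus strand: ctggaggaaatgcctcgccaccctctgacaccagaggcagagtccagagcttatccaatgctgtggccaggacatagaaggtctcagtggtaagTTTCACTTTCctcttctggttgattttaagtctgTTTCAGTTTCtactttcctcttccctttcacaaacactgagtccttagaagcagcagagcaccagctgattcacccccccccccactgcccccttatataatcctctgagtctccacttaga
Gbp2, chr3:142620413-142620662, plus strand: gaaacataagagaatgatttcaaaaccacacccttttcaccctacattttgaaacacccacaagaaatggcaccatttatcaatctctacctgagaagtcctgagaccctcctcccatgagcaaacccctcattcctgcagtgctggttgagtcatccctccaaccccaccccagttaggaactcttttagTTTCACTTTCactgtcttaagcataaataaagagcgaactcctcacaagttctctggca
Ifi47, chr11:49076337-49076586, plus strand: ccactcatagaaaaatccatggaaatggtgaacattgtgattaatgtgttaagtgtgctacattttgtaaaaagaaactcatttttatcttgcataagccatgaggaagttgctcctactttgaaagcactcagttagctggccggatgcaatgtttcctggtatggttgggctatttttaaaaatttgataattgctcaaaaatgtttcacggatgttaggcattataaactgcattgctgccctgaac
In Cxcl10 the capitals are the core, 213 to 204 bases before the start, and NF-kB matches at 159 to 150 and at 104 to 94 bases, the latter made of overlapping matches. Ifit3 held the core on the reverse strand at 156 to 147 and at 122 to 113 bases. Gbp2 held it on the reverse strand at 59 to 50 bases. Gbp2 also held an NF-kB match on the reverse strand after the start, at bases 258 to 267 of the 300-base window, outside the printed stretch. The Ifi47 stretch held none of the motifs searched, which says only that these letters are not in this window.

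Values are the deposited log2 levels, so a difference of 1 is a doubling. Array medians lay between 6.997 and 7.07, and correlations between arrays within a group ran from 0.983 to 0.997. Lung markers were near the top of all levels on every array, among them Sftpc of alveolar type II cells (14.76 to 14.97) and Scgb1a1 of club cells (14.82 to 15.02). Skeletal muscle genes averaged 10.56 on rhPBEF replicate 2 and 9.50 on ventilation replicate 3, against 6.57 to 7.09 on the other arrays. Groups were compared with limma, and a gene was called at a Benjamini-Hochberg adjusted p below 0.05 over all 12921 genes. Comparisons against control share the same 3 control arrays.

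With rhPBEF, averaged over unventilated and ventilated lungs, 8 of the 34 genes rose and none fell. They were Cxcl10, Gbp2, Ifi47, Ifit1, Irgm1, Gbp3, Parp14 and Ifit3, with rises from 1.58-fold (Ifit3) to 10.9-fold (Cxcl10). That is 23.5% of the genes, against 2.62% of all genes tested called higher and 2.06% called lower. The estimate was positive for 32 of the 34 (94.1%, all genes 36.6%), and 20 (58.8%, all genes 7.93%) had an unadjusted p below 0.05 with a positive difference. Their median difference was 0.41 log2, against -0.04 over all genes tested. Against control alone, both treatments together raised 6 of the 34 (17.6%, background 3.93% higher and 4.86% lower): Cxcl10, Gbp2, Gbp3, Ifit1, Irgm1 and Rsad2. Against control, rhPBEF alone raised Cxcl10 only (1 of 34, 2.94%, background 0.936% higher and 0.286% lower), with a median difference of 0.45 for the 34 genes and -0.07 for all genes. With 1 array left out, the count ran from 1, which was Cxcl10, to 19 for rhPBEF averaged over ventilation, from 0 to 20 for both against control and from 0 to 6 for rhPBEF against control, each highest without replicate 3 of both. With array weights, which give less weight to arrays that vary more, the counts were 24, 29 and 14, against 7.75%, 15.7% and 4.36% of all genes called higher.

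**Figure D1:**
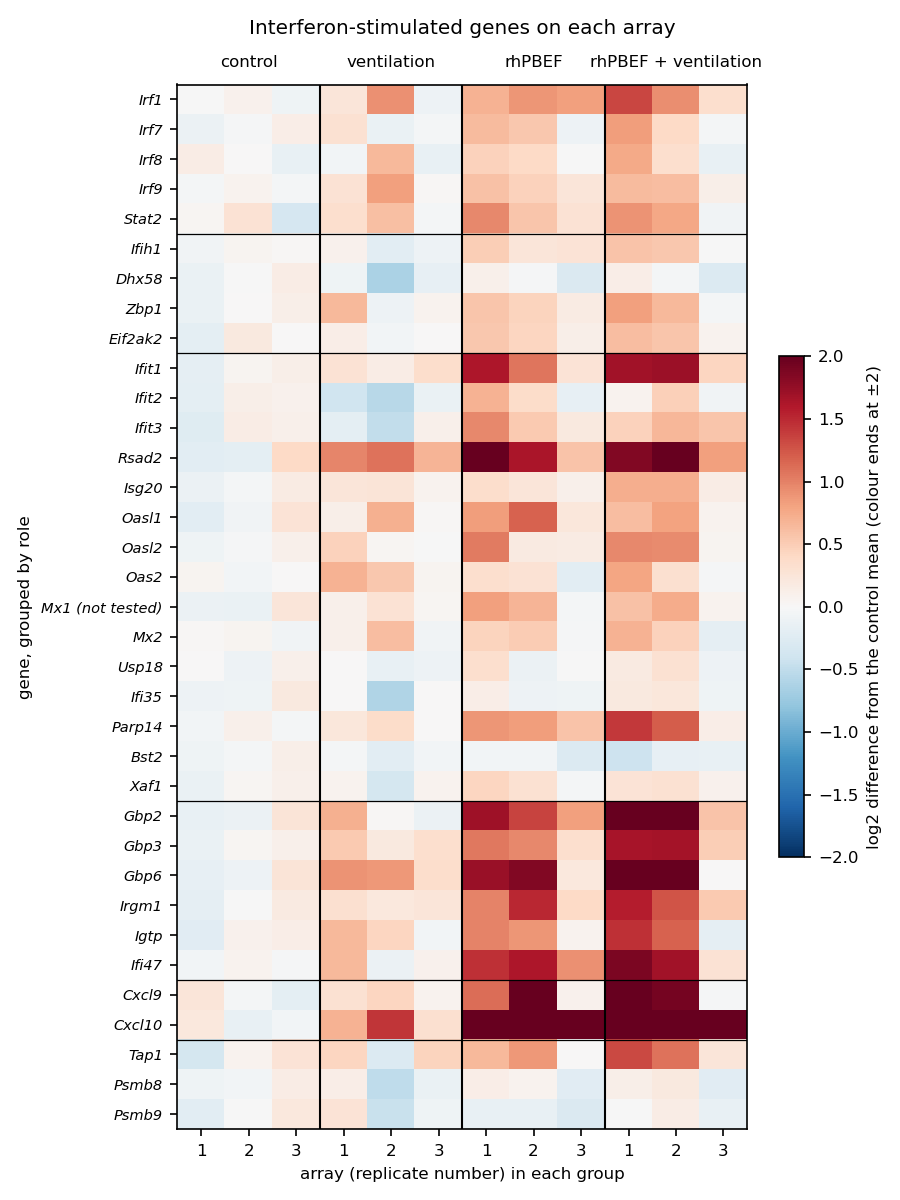
Log2 difference of each of the 35 measured interferon-stimulated genes (34 tested, and Mx1) from its own control mean (colour scale, ending at 2 in each direction), on each of the 12 arrays (columns, by group), with genes in rows by role. Cxcl10 and the GTPases rise most on replicates 1 and 2 of the rhPBEF group and of the group given both, and for all of these but Cxcl10, which is past the end of the scale, the third array of each of these groups is paler than the other two.

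Of the 34 genes, the chemokine Cxcl10 rose most. Cxcl10, which attracts T and NK cells through the receptor CXCR3, stood at 7.04, 6.68 and 6.77 in control, 7.53, 8.26 and 7.15 after ventilation, 11.12, 11.63 and 9.15 after rhPBEF and 11.71, 11.39 and 9.08 after both. Every rhPBEF-treated array lay above every array without rhPBEF, by at least the gap between 8.26 on ventilation replicate 2 and 9.08 on replicate 3 of both. The rise was 3.44 ± 0.50 log2 (SE; 10.9-fold, limma adjusted p = 0.00412) averaged over ventilation, the ninth largest of all genes. Against control it was 13.9-fold after rhPBEF (adjusted p = 0.0285) and 14.9-fold after both (adjusted p = 0.0138). Cxcl9, a second CXCR3 ligand that depends largely on interferon gamma, stood at 6.16, 5.88 and 5.74 in control, 6.23, 6.36 and 6.001 after ventilation, 7.04, 7.97 and 6.01 after rhPBEF and 8.63, 7.85 and 5.91 after both. It was high on replicates 1 and 2 of the rhPBEF-treated groups and at the control level on replicate 3 of each, and its difference of 1.17 ± 0.43 was not called (adjusted p = 0.131), with 0.54 from its other probe set. Cxcl9 passed the filter only through the treated groups, since its control mean of 5.93 lay below the filter level of 6.42.

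Of the 6 interferon-inducible GTPases, 4 rose with rhPBEF averaged over ventilation, where 2.62% of all genes were called higher. The median difference was 1.01 log2 (all genes -0.04). Guanylate-binding protein Gbp2, which coats vacuoles holding microbes, stood at 9.71, 9.74 and 10.12 in control, 10.56, 9.89 and 9.74 after ventilation, 11.55, 11.21 and 10.67 after rhPBEF and 12.40, 12.27 and 10.43 after both. All rhPBEF-treated arrays lay above all control arrays, with replicate 3 of both below ventilation replicate 1, and the rise was 1.46 ± 0.32 (2.75-fold, adjusted p = 0.0293). Gbp3 of the same family stood at 8.74, 8.90 and 8.97 in control, 9.40, 9.07 and 9.21 after ventilation, 9.92, 9.83 and 9.20 after rhPBEF and 10.51, 10.53 and 9.36 after both. It rose by 0.84 ± 0.20 (1.8-fold, adjusted p = 0.0398), and by 1.27 ± 0.28 with both against control (adjusted p = 0.0265). Replicate 3 of the rhPBEF group and of both lay below ventilation replicate 1. Ifi47, an immunity-related GTPase, stood at 9.59, 9.72 and 9.62 in control, 10.29, 9.52 and 9.73 after ventilation, 11.11, 11.26 and 10.56 after rhPBEF and 11.53, 11.33 and 9.94 after both. It rose by 1.21 ± 0.26 (2.31-fold, adjusted p = 0.0266), although the third array of both overlapped with ventilation replicate 1. Irgm1, which regulates the other immunity-related GTPases and autophagy, stood at 8.71, 8.90 and 9.09 in control, 9.22, 9.11 and 9.15 after ventilation, 9.89, 10.41 and 9.29 after rhPBEF and 10.47, 10.15 and 9.43 after both. All 6 rhPBEF-treated arrays lay above all 6 others, and the rise was 0.91 ± 0.20 (1.88-fold, adjusted p = 0.0298). Gbp6 (1.12 ± 0.43, adjusted p = 0.15) and Igtp (0.56 ± 0.27, adjusted p = 0.238) were not called. Gbp6 had the widest spread of all 34 genes among arrays given both, with an SD of 1.45 (n = 3). The Gbp2 probe set used was of the type whose probes can match other transcripts, and guanylate-binding proteins are close relatives, so their values may share signal. The other Gbp2 probe set gave a difference of 1.29.

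**Figure D2:**
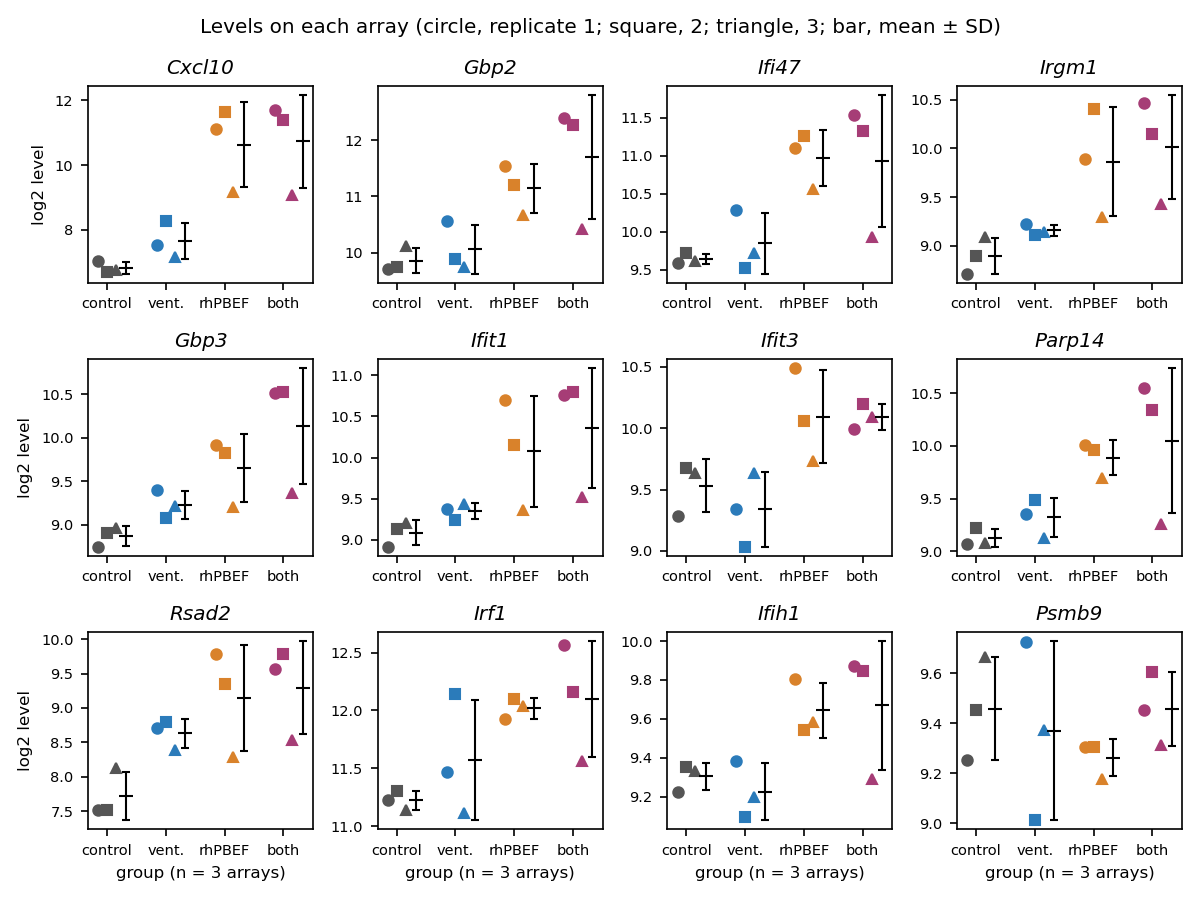
Log2 level of selected interferon-stimulated genes on each array (points), by group, with the group mean ± SD beside them (n = 3), on a separate scale for each gene. Cxcl10 separates the rhPBEF-treated arrays from the others, while for most genes the third array of the rhPBEF group and of both lies nearer to control than its partners.

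Among 14 tested antiviral effectors, 3 rose with rhPBEF averaged over ventilation and none fell, against 2.62% and 2.06% of all genes. The median difference was 0.35 log2 (all genes -0.04). Ifit1, which binds viral RNA lacking the host cap modification, stood at 8.92, 9.14 and 9.21 in control, 9.38, 9.24 and 9.44 after ventilation, 10.70, 10.15 and 9.37 after rhPBEF and 10.76, 10.80 and 9.52 after both. Its rise was 1.0 ± 0.25 (2-fold, adjusted p = 0.048), although the third rhPBEF array lay below ventilation replicates 1 and 3. Ifit1 lay above control without overlap in all 3 treated groups. Ifit3, its partner in the same complex, stood at 9.28, 9.68 and 9.64 in control, 9.34, 9.03 and 9.64 after ventilation, 10.49, 10.06 and 9.73 after rhPBEF and 9.99, 10.20 and 10.09 after both. The 6 rhPBEF-treated arrays lay above the 6 others, and the rise was 0.66 ± 0.14 (1.58-fold, adjusted p = 0.0265). Ifit2 of that family stood at 8.68, 8.98 and 8.95 in control, 8.47, 8.31 and 8.74 after ventilation, 9.56, 9.24 and 8.71 after rhPBEF and 8.94, 9.34 and 8.81 after both, a difference of 0.41 ± 0.15 that was not called (adjusted p = 0.13). Parp14, a mono-ADP-ribosyltransferase, stood at 9.07, 9.22 and 9.08 in control, 9.35, 9.49 and 9.13 after ventilation, 10.004, 9.96 and 9.70 after rhPBEF and 10.54, 10.34 and 9.26 after both. It rose by 0.74 ± 0.19 (1.67-fold, adjusted p = 0.0468), with ventilation replicate 2 above the third array of both. Rsad2 (viperin), a radical-SAM enzyme that makes a chain terminator of viral RNA synthesis, stood at 7.51, 7.52 and 8.12 in control, 8.70, 8.80 and 8.40 after ventilation, 9.79, 9.35 and 8.28 after rhPBEF and 9.57, 9.79 and 8.53 after both. It rose with both against control (1.58 ± 0.39, 2.99-fold, adjusted p = 0.0347), and its rhPBEF difference averaged over ventilation was 1.04 ± 0.27 (adjusted p = 0.056). Isg20, an RNA exonuclease, stood at 10.03, 10.12 and 10.31 in control, 10.40, 10.41 and 10.23 after ventilation, 10.51, 10.40 and 10.26 after rhPBEF and 10.88, 10.88 and 10.31 after both, and its difference of 0.29 ± 0.11 was not called (adjusted p = 0.134).

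The other antiviral effectors were not called. Oasl1 (0.48), Oasl2 (0.47), Xaf1 (0.26) and Mx2 (0.21) had positive differences. Usp18, a protease that removes ISG15 and dampens interferon receptor signalling, differed by 0.14 (95% interval -0.07 to 0.35). For Oas2, which makes the second messenger that activates RNase L, the difference was 0.04 (-0.31 to 0.38). Ifi35 differed by 0.14 (-0.12 to 0.40). Bst2, the tetherin that holds budding virions at the cell surface, differed by -0.13 (-0.29 to 0.03). The intervals of Usp18, Oas2, Ifi35 and Bst2 do not include a doubling. Mx1, below the filter, stood at 5.84, 5.83 and 6.20 in control, 6.06, 6.25 and 6.004 after ventilation, 6.78, 6.63 and 5.92 after rhPBEF and 6.54, 6.70 and 6.03 after both.

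None of the 5 transcription factors was called for rhPBEF averaged over ventilation, where 2.62% of all genes were called higher. With so few genes, none called is near that share and is no result about this role. All 5 differences were positive (median 0.35). An unadjusted p below 0.05 with a positive difference was seen for 1 (20%, all genes 7.93%). Irf1, which is induced by interferon gamma and by NF-kB and activates guanylate-binding and antigen-processing genes, stood at 11.22, 11.30 and 11.14 in control, 11.46, 12.14 and 11.11 after ventilation, 11.92, 12.10 and 12.04 after rhPBEF and 12.56, 12.16 and 11.57 after both. All rhPBEF-treated arrays lay above all control arrays, but ventilation replicate 2 overlapped with them, and the difference was 0.66 ± 0.18 (adjusted p = 0.0672). Stat2, a transcription factor of type I signalling, stood at 7.997, 8.24 and 7.61 in control, 8.29, 8.56 and 7.91 after ventilation, 8.91, 8.51 and 8.24 after rhPBEF and 8.85, 8.72 and 7.88 after both, a difference of 0.42 ± 0.19 (adjusted p = 0.221). Irf9, which binds DNA in a complex with STAT2, stood at 9.12, 9.23 and 9.13 in control, 9.45, 9.99 and 9.18 after ventilation, 9.75, 9.62 and 9.41 after rhPBEF and 9.79, 9.77 and 9.28 after both. Its difference was 0.25 ± 0.14 (adjusted p = 0.289), with its highest value on ventilation replicate 2. Irf7, which amplifies type I interferon production, stood at 8.07, 8.17 and 8.31 in control, 8.49, 8.06 and 8.15 after ventilation, 8.81, 8.72 and 8.08 after rhPBEF and 9.01, 8.59 and 8.15 after both. Its difference was 0.35 ± 0.16 (adjusted p = 0.221), and replicate 3 of the rhPBEF group and of both lay inside the control range. Irf8, a factor of myeloid cells, differed by 0.23 ± 0.17 (adjusted p = 0.464).

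None of the 4 RNA and DNA sensors was called, which for so few genes is near the 2.62% of all genes called higher. An unadjusted p below 0.05 with a positive difference was seen for 2 (50%, all genes 7.93%). Ifih1 (MDA5), a sensor of long double-stranded RNA, stood at 9.23, 9.35 and 9.33 in control, 9.39, 9.10 and 9.20 after ventilation, 9.80, 9.54 and 9.59 after rhPBEF and 9.87, 9.85 and 9.29 after both, and its difference was 0.39 ± 0.10 (adjusted p = 0.0594). Eif2ak2 (PKR), which stops translation when it binds such RNA, stood at 7.24, 7.64 and 7.44 in control, 7.58, 7.39 and 7.45 after ventilation, 7.99, 7.87 and 7.57 after rhPBEF and 8.06, 7.99 and 7.52 after both, a difference of 0.38 ± 0.11 (adjusted p = 0.0815). The other Eif2ak2 probe sets gave smaller differences, 0.16 and 0.28. Zbp1, a sensor of Z-form nucleic acids that can start necroptosis, stood at 7.04, 7.18 and 7.28 in control, 7.81, 7.06 and 7.23 after ventilation, 7.72, 7.61 and 7.33 after rhPBEF and 7.99, 7.81 and 7.13 after both. Its difference was 0.33 ± 0.16 (adjusted p = 0.25). Dhx58 (LGP2), a helper of MDA5, stood at 7.13, 7.26 and 7.41 in control, 7.18, 6.64 and 7.10 after ventilation, 7.37, 7.25 and 6.97 after rhPBEF and 7.40, 7.23 and 6.99 after both. Its difference was 0.08 (95% interval -0.17 to 0.33), with -0.09 and -0.14 from its other probe sets, and its groups overlapped.

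None of the 3 antigen processing genes was called, which for so few genes is near the 2.62% of all genes called higher. An unadjusted p below 0.05 with a positive difference was seen for 1 (33.3%, all genes 7.93%). Tap1, a subunit of the transporter that carries peptides to MHC class I, stood at 8.62, 9.04 and 9.24 in control, 9.39, 8.70 and 9.41 after ventilation, 9.62, 9.83 and 8.97 after rhPBEF and 10.29, 10.05 and 9.21 after both. Its difference was 0.59 ± 0.22 (adjusted p = 0.138), and its 4 probe sets gave -0.07 to 0.59. The immunoproteasome subunit Psmb8 stood at 10.07, 10.10 and 10.31 in control, 10.30, 9.65 and 10.02 after ventilation, 10.29, 10.23 and 9.94 after rhPBEF and 10.28, 10.36 and 9.94 after both, a difference of 0.10 (95% interval -0.16 to 0.36). Psmb9, another such subunit, stood at 9.25, 9.45 and 9.67 in control, 9.73, 9.01 and 9.37 after ventilation, 9.31, 9.31 and 9.18 after rhPBEF and 9.45, 9.61 and 9.31 after both, a difference of -0.05 (-0.31 to 0.20). Neither interval includes a doubling.

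**Figure D3:**
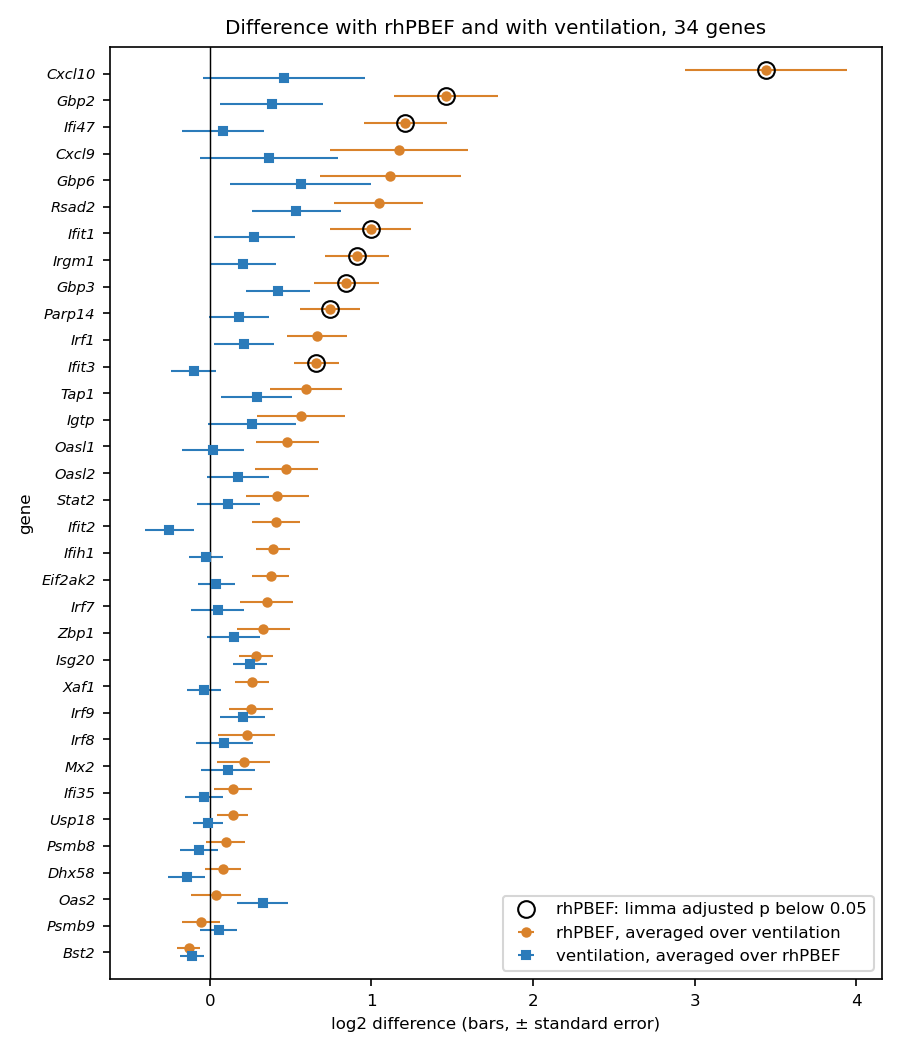
Log2 difference ± SE (limma) for each of the 34 genes with rhPBEF averaged over ventilation (circles, ringed where the adjusted p was below 0.05) and with ventilation averaged over rhPBEF (squares), sorted by the first. Cxcl10 lies at 3.44 and the 4 called GTPases between 0.84 and 1.46, while Psmb8, Psmb9, Dhx58 and Oas2 lie near 0.

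Among the 7 genes called for rhPBEF that had a RefSeq promoter, 6 held the response element core, none held a gamma-activated site and 2 held an NF-kB site. Among the 20 other tested genes with a promoter, the numbers were 6, 9 and 5. By role, the core lay in 4 of 5 GTPases, 5 of 12 antiviral effectors, both sensors matched, 1 of 5 transcription factors, 1 of 2 chemokines and 0 of 3 antigen processing genes. A match is a description of letters and not of a bound site.

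The 34 genes lay higher than all genes tested in the rhPBEF comparisons. Their median difference was 0.51 for both against control (all genes -0.06), 0.41 for both against ventilation (-0.02) and 0.30 for rhPBEF against ventilation (-0.02). In 14 of the 34 (41.2%) all 3 rhPBEF arrays lay above all 3 control arrays, against 9.24% of all genes. The same held for 11 (32.4%) after both, against 12.5%, and for 7 (20.6%) after ventilation, against 9.1%. None was called in both against ventilation (background 0.325% in either direction) or in rhPBEF against ventilation (0.689%). At an unadjusted p below 0.05 there were 12 (35.3%, all genes 9.98%) and 7 (20.6%, all genes 12.5%). Without replicate 3 of both, 11 and 2 were called higher, with 2.28% and 0.921% of all genes. Without the third rhPBEF array the counts were 0 and 1, with 0.248% and 0.294% of all genes.

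**Figure D4:**
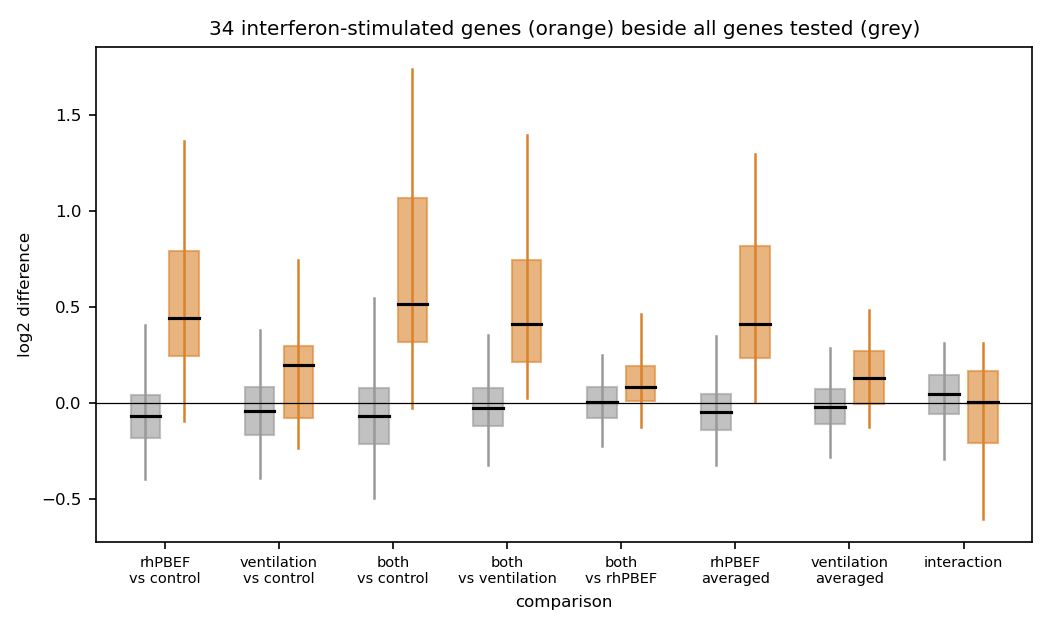
Percentiles of the log2 difference over all 12921 genes tested and over the 34 interferon-stimulated genes, for 8 comparisons, with a line at the median, a box from the 25th to the 75th percentile and whiskers from the 5th to the 95th. The medians of the 34 genes are 0.45, 0.20 and 0.51 for rhPBEF, ventilation and both against control, against -0.07, -0.04 and -0.06 for all genes.

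Ventilation alone called none of the 34 genes against control, where 0.00774% of all genes were called. Rsad2 had the only unadjusted p below 0.05 (0.0381; 1 of 34 is 2.94%, against 15.5% of all genes), with a difference of 0.92 ± 0.39 (1.89-fold, adjusted p = 0.296), and its ventilation arrays lay above all control arrays. Cxcl10 differed by 0.82 (95% interval -0.75 to 2.38). The median over the 34 genes was 0.20 with 24 positive, against -0.04 for all genes. Averaged over rhPBEF, ventilation called none of the 34 (background 0.549%), with 1 of them (2.94%, all genes 16.6%) at an unadjusted p below 0.05 and a median of 0.13 (all genes -0.02). Without replicate 3 of both, 3 were called higher, with 1.8% of all genes called higher.

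None of the 34 genes was called when ventilation was added to rhPBEF. In that comparison, both against rhPBEF, 0.00774% of all genes were called, none of the 34 had an unadjusted p below 0.05 (all genes 3.77%), and the median difference was 0.08. For Cxcl10 the difference was 0.10 (-1.47 to 1.66) and for Gbp2 0.56 (-0.44 to 1.55), intervals that include a doubling. The interaction, the amount by which both differs from the sum of the separate effects, was called in 0% of all genes and in none of the 34 (lowest adjusted p = 0.998, none at an unadjusted p below 0.05, all genes 2.23%). It was -0.72 (-2.93 to 1.49) for Cxcl10 and -0.76 (-1.97 to 0.45) for Rsad2. The group means were ordered control, ventilation, rhPBEF and both, from low to high, in 20 of the 34, and both was highest in 24, but none of the 34 was called between both and rhPBEF.

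The arrays within the treated groups were uneven for these genes. The third rhPBEF array was the lowest of its group for 30 of 34 (88.2%), and the third array of both for 32 (94.1%), against 35.6% and 38.5% of all genes tested. The median deviation of the 34 genes from control was 0.67, 0.52 and 0.14 on the 3 rhPBEF arrays and 0.81, 0.69 and 0.03 on the 3 arrays of both. For the GTPases it was 1.26, 1.43 and 0.36, and 1.77, 1.67 and 0.39. The 330 other genes called higher with rhPBEF averaged over ventilation deviated by 0.86, 0.98 and 0.68 and by 1.23, 1.05 and 0.59. They were chosen by that contrast, which favours genes high and even on the rhPBEF-treated arrays. Their values therefore cannot show whether the lower replicate 3 is particular to the 34 genes. Cxcl2, a neutrophil chemokine and NF-kB target, was named here with its values known. It had the largest difference of all genes for rhPBEF against control (7.43), so it cannot show this either. Cxcl2 was 12.82, 12.69 and 12.90 after rhPBEF and 13.18, 12.66 and 12.13 after both, against 5.31 to 5.48 in control. The third arrays were not at the control level for every gene, since 14 genes after rhPBEF and 11 after both lay above control on all 3 arrays. Irf1 on the third rhPBEF array (12.04) and Ifit3 on the third array of both (10.09) lay between the values of their partners. The median SD within a group was 0.14 for the 34 genes in control (0.09 for all genes), 0.30 after ventilation (0.16), 0.32 after rhPBEF (0.11) and 0.45 after both (0.13). In control, replicate 1 was the lowest for 26 of 34 (76.5%, all genes 31.1%).

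Leukocyte markers also differed between arrays. The neutrophil markers, 11 of 12 tested, averaged 7.94 to 8.21 in control, 8.79 to 10.91 after ventilation, 10.17 to 10.53 after rhPBEF and 9.86 to 11.50 after both. Of these 11, 4 rose with rhPBEF averaged over ventilation (2.62% of all genes) and 7 with both against control (3.93%). None was called with ventilation against control, where 0% of all genes were called higher. The median difference of the 11 from control was 2.61 after ventilation and 2.67 after rhPBEF, with all 11 positive in each. The average over ventilation hides a split, since the median was only 0.34 for both against ventilation. None was called there (background 0.325% in either direction). The median interaction was -1.99 (all genes 0.05), with none of the 11 positive and none called (0% of all genes). The NK cell markers, 5 of 8 tested, averaged 7.47 to 7.75 in control, 7.43 to 8.37 after ventilation, 7.11 to 7.68 after rhPBEF and 7.21 to 8.27 after both. None of the 5 was called for rhPBEF averaged over ventilation or for both against control. Replicate 3 had the lowest value of each rhPBEF-treated group for the NK cell, neutrophil and T cell markers. This did not hold for the markers of alveolar macrophages, monocytes, B cells, plasmacytoid dendritic cells or conventional dendritic cells. Replicate 3 of both was the highest of its group for B cell (8.11) and plasmacytoid dendritic cell (9.55) markers. The third rhPBEF array was the highest of its group for conventional dendritic cell markers (8.29). T cell markers, 5 of 7 tested, averaged 7.35 to 7.73 over all arrays. Among alveolar macrophage markers, 7 of 8 tested, Marco rose (1.56, adjusted p = 0.00353) and Siglecf fell (-0.68, adjusted p = 0.0446) with rhPBEF averaged over ventilation. The part of these cells in the interferon-stimulated genes was not tested.

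The count of called genes depended on single arrays, and the share of all genes called higher moved with it. For rhPBEF averaged over ventilation, leaving out replicate 3 of both gave 19 of the 34 in place of 8, with 5.16% of all genes in place of 2.62%. Leaving out the third rhPBEF array gave 9 (2.86%). Leaving out any control array, rhPBEF replicate 2, or replicate 1 or 2 of both left 1 called, with 1.34% to 1.57% of all genes. Leaving out rhPBEF replicate 1 left 2 (1.55%), and leaving out ventilation replicate 1, 2 or 3 left 3 (1.74%), 6 (2.76%) and 6 (3.52%). For both against control, in place of 6 and 3.93%, the count was 20 (7.31%) without replicate 3 of both and 10 (5.43%) without ventilation replicate 2. It was 1 without control replicate 1 (1.06%) or 3 (1.28%), and 0 without control replicate 2 (0.944%) or replicate 1 (0.898%) or 2 (0.983%) of both. For rhPBEF against control, in place of 1 and 0.936%, it was 6 (1.92%) without replicate 3 of both, 2 (0.828%) without the third rhPBEF array, and 0 (0.317% to 0.395%) without any 1 control array or rhPBEF replicate 1 or 2. Without the 2 arrays high in skeletal muscle genes, it was 2 (1.92%) for rhPBEF averaged over ventilation, 3 (3.71%) for both against control and 0 (0.472%) for rhPBEF against control. Cxcl10 was called for rhPBEF averaged over ventilation in all 22 alternatives run, with adjusted p from 4.92e-05 to 0.0232. For both against control it was called in 20 of 23, and missed without control replicate 2 or replicate 1 or 2 of both (highest adjusted p = 0.0636). The other 7 were called in 8 (Parp14) to 15 (Ifit3) of the 22.

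**Figure D5:**
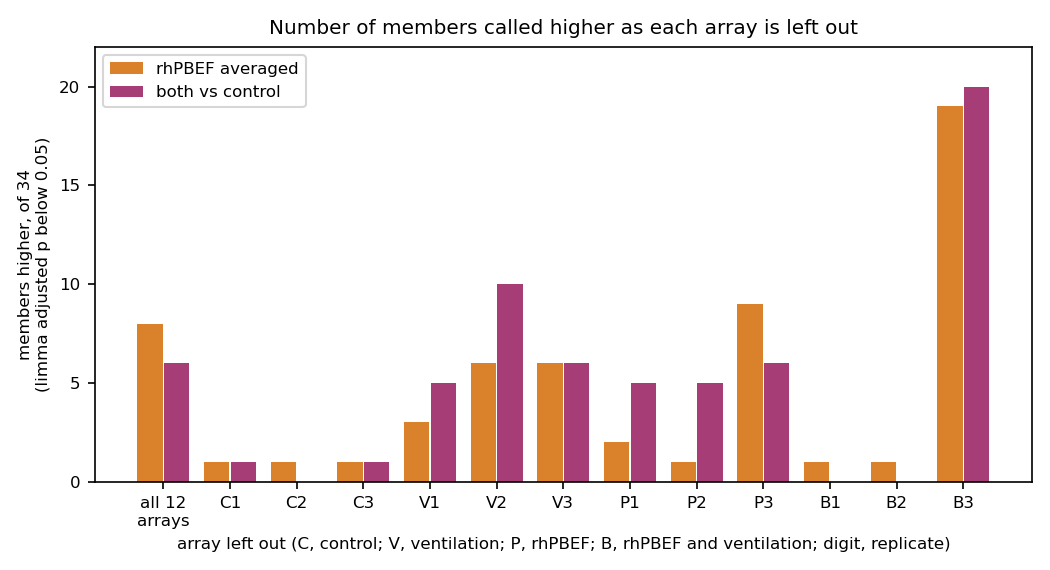
Number of the 34 interferon-stimulated genes called higher (y axis) when each array is left out in turn (x axis), for rhPBEF averaged over ventilation and for both against control, with the counts from all arrays, 8 and 6, as the first bars. The count reaches 19 and 20 without the third array of both and falls to 1 and 0 without its first or second array.

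Upstream and neighbouring genes of the pathway were taken from a separate list of 99, of which 71 were tested. With rhPBEF averaged over ventilation, 14 rose and none fell (median 0.19, all genes -0.04), and 12 rose and 1 fell with both against control. That is 19.7% and 16.9% called higher, against 2.62% and 3.93% of all genes. With 1 array left out, the counts called higher ran from 8 (without control replicate 2 or 3, rhPBEF replicate 1 or replicate 2 of both) to 29 (without replicate 3 of both) for rhPBEF averaged over ventilation. For both against control they ran from 4 (without control replicate 1 or replicate 2 of both) to 30 (without replicate 3 of both). Socs3, a feedback inhibitor of JAK kinases in cytokine signalling, rose by 1.72 (adjusted p = 0.00471), and Ptpn2, a phosphatase that acts on JAK kinases, rose by 1.12 (adjusted p = 6.28e-04). Jak2, a kinase of the interferon gamma receptor, rose by 0.56 (adjusted p = 0.0116). Of 6 receptor chains tested, 2 were called, Ifnar2 (0.26, adjusted p = 0.032) and Il10rb (0.48, adjusted p = 0.012), both higher. Of the genes that induce interferon, Myd88, a Toll-like receptor adaptor, rose by 0.82 (adjusted p = 0.0144), the kinase Tbk1 by 0.49 (adjusted p = 0.0057) and the factor Irf5 by 0.54 (adjusted p = 0.0299). Schlafen genes Slfn4 (2.21, adjusted p = 0.0163), Slfn1 (1.22, adjusted p = 0.0325) and Slfn2 (1.05, adjusted p = 0.00371) rose too. So did Ifitm1 (0.71, adjusted p = 0.0189), Cd274 (0.97, adjusted p = 0.0253) and Parp9 (0.60, adjusted p = 0.0267). For Slfn4, Slfn1, Slfn2, Socs3 and Myd88, the mean after ventilation alone lay nearer to rhPBEF than to control. In control, ventilation, rhPBEF and both, Slfn4 averaged 6.32, 9.64, 10.14 and 10.24. Slfn1 averaged 6.30, 8.004, 8.38 and 8.36, and Socs3 9.44, 11.72, 12.09 and 12.51. Il10rb after ventilation (10.53) stayed near control (10.51), with 10.97 after rhPBEF. Ifi27 was the gene that fell with both (-0.25, adjusted p = 0.048), and it was not called with each array centred on its median.

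Of the 13 interferons listed, Ifna1 and Ifna2 were tested, and neither was called. Ifnb1 lay between 5.31 and 5.81 on all 12 arrays, and Ifng between 3.95 and 4.26 on 11 arrays and at 6.16 on ventilation replicate 2. No detection calls were used here, so the levels of Ifnb1 and Ifng, below the filter, cannot be told from background.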

How the data were processed

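The deposited table holds log2 expression values for 45101 probe sets on 12 arrays. The submitters' processing notes name MAS5 and GCRMA without saying which made the values, so the authors' steps of background correction and normalization are unknown (not given in the sources used here). All values were used as deposited. The 64 control probe sets were left out. Of the others, 34945 had 1 gene symbol in the platform annotation, 932 had several and 9160 none. The filter level was the 40th percentile of the means over the 12 arrays of all non-control probe sets (log2 6.42). Probe sets not above it were left out. Of the rest with 1 symbol, the probe set with the highest mean stood for each gene, and genes with none left were not tested. The 4 group means were fitted to all 12921 genes with limma 3.58.1 (R 4.3.3), with 8 residual degrees of freedom, and p-values were adjusted by Benjamini-Hochberg over all of them. An exact test of 3 against 3 arrays cannot go below a two-sided p of 0.1. The fit was run on simulated data with independent normal noise and, for each gene, the same spread in every group. That setting has no uneven arrays, so it does not bear on how the calls depend on single arrays here. Array values are printed for, in each role, up to 4 genes with the smallest p for rhPBEF averaged over ventilation (6 among antiviral effectors), and for every called gene. Symbols of 35 of 35 genes were the same in the RefSeq table. The members and lists were chosen with earlier results of these data known. No batch was named in the labels, and the depth of an array is not a count, so the number of arrays limits the precision. Alternatives changed the filter, scaling, variance model, probe set rule, replicate block and the arrays used. Figures were drawn with matplotlib 3.10.9.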

Additional observations from a re-analysis of the deposited data

How the results depend on the processing

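Counts are of the 34 genes called higher, with the share of all genes called higher in parentheses. With array weights the count was 24 (7.75%) for rhPBEF averaged over ventilation, 29 (15.7%) for both against control, 12 (3.08%) for both against ventilation, 14 (4.36%) for rhPBEF against control, 1 (0.751%) for rhPBEF against ventilation and 2 (4.3%) for ventilation averaged over rhPBEF. The values do not settle whether the replicate numbers pair the arrays. Correlations of same-numbered arrays ran from -0.21 to 0.53, and 6 of 12 arrays were closest to their own number. The highest correlation was between the third arrays of the rhPBEF group and of both. With the replicate number as a block, the count was 10 (4.44%) for both against control, 10 (3.04%) for rhPBEF averaged, 1 (0.356%) for both against ventilation and 1 (0.549%) for rhPBEF against ventilation. Without the 2 arrays high in skeletal muscle genes, an alternative chosen after seeing the data, it was 2 (1.92%) for rhPBEF averaged, 3 (3.71%) for both against control and 0 (0.472%) for rhPBEF against control. With only the arrays of the groups compared, rhPBEF against control gave 5 (3%). Leaving out 1 array at a time gave 1 to 19 for rhPBEF averaged, 0 to 20 for both against control, 0 to 11 for both against ventilation, 0 to 6 for rhPBEF against control, 0 to 2 for rhPBEF against ventilation and 0 to 3 for ventilation averaged. In these cases the cause was not tested. The other filters, scalings, variance model and probe set rules gave 6 to 8 for rhPBEF averaged and 5 to 9 for both against control. Alternatives gene by gene were run for the 23 genes with array values given and not for the others, such as Oas2 or Bst2. Among the 23, differences near 0 changed sign for 3 genes. For both against control, Dhx58 became 0.0051 with array weights and ran from -0.1573 to 0.0454 with 1 array left out. Psmb9 became 0.0213 with median centring, 0.0102 with quantile normalisation and 0.1552 with array weights, and ran from -0.1025 to 0.1041 with 1 array left out, and Psmb8 ran from -0.0492 to 0.1579. For rhPBEF averaged, Dhx58 ran from -0.0026 to 0.1367 and Psmb9 from -0.1435 to 0.0351.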

Other observations

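Socs1, an inhibitor of interferon signalling that lay below the filter and was not tested, averaged 5.92 ± 0.16 (SD, n = 3) in control and 6.86 ± 0.54 after both. Its group order followed that of most interferon-stimulated genes, with 6.27 after ventilation and 6.45 ± 0.27 after rhPBEF.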
